A study of Mus musculus with 27 samples.

Results

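Mitosis and spindle genes were followed through oxygen-induced retinopathy (OIR) in the mouse retina. The set held 35 genes, such as cyclins, mitotic kinases, kinetochore proteins, spindle motors and proliferation marks, out of 40129 genes in the table. It was chosen by symbol with earlier results of these data known, so its shares beside those of all genes are descriptions. All 35 were in the table, and all 35 had a mean of at least 10 normalized reads over the 26 mice used. In the OIR model, pups are kept in high oxygen, which removes central retinal vessels, and return to room air leaves the central retina ischemic until new vessels and preretinal tufts form. C57BL/6J pups of both sexes in the OIR groups were held at 75% oxygen from postnatal day 7 to 12 and killed at p14 (6 mice, 4 litters) or p17 (8 mice, 3 litters). Controls without OIR (nOIR) stayed in room air and were killed at p14 (6 mice used, from a group of 3 litters) or p17 (6 mice, 2 litters). All mice were wild type. Each library held RNA of 1 or both whole retinas of a pup, so every cell type of the retina contributed.

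Mitosis runs on a small set of proteins that a dividing cell makes shortly before it divides and then destroys. Cyclin B with the kinase Cdk1 starts it, kinetochores join chromosomes to the spindle, the checkpoint holds anaphase until every kinetochore is attached, and the anaphase-promoting complex (APC/C) then marks cyclin B for destruction. Neurons of the mouse retina have left the cell cycle by the ages studied, whereas vessel cells, glia and immune cells can still divide. In bulk retina, a change in the number of cells of a type and a change in RNA per cell cannot be told apart, so no value given here is a count of dividing cells.

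The 26 libraries held 17029536 to 33593428 reads, with medians of 29704549 in nOIR p14, 26105775 in OIR p14, 29249316 in nOIR p17 and 30538756 in OIR p17. No pair of mice in a group was a copy, since the lowest chi-square per degree of freedom of any such pair was 9.39. Lens RNA was uneven, and 6 mice were above 3000 normalized reads of the lens gene Cryaa (nOIR p14 S5, nOIR p17 S3 and OIR p17 S2, S3, S7 and S8). Some of the counts that rest on these mice, among them the genes called at each age, are given with and without them. Mice of a group shared litters, and the litter of each mouse was not used here.

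Mitotic genes rose in OIR retinas at both ages. At p14, 22 of 35 genes (62.9%) were higher in OIR than in nOIR mice, 1 was lower and 12 were not called, with adjusted p under 0.05 in limma (Benjamini-Hochberg over 27137 genes), which gave every adjusted p below. Of all genes tested, 3.18% were higher and 2.91% lower in that comparison. At p17, 31 of 35 (88.6%) were higher, 1 was lower and 3 were not called, against 7.39% and 5.12% of all genes. The gene that was lower was Spc25 at both ages. Over the 35 genes the log2 fold change had a median of 1.41 (p14) and 2.34 (p17), while the median over all genes was 0.017 and -0.023. Without the 6 mice rich in lens RNA, 19 genes were higher at p14 and 29 at p17.

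The rise was often large. Above a log2 fold change of 2, 11 genes were called at p14 and 19 at p17, against 0.744% and 1.9% of all genes. All OIR mice lay above all nOIR mice for 17 genes at p14 and for 27 at p17, against 1.91% and 3.9% of all genes. Fold changes are on the scale of log2(normalized reads + 1), which understates the change of genes near 0.

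**Figure D1:**
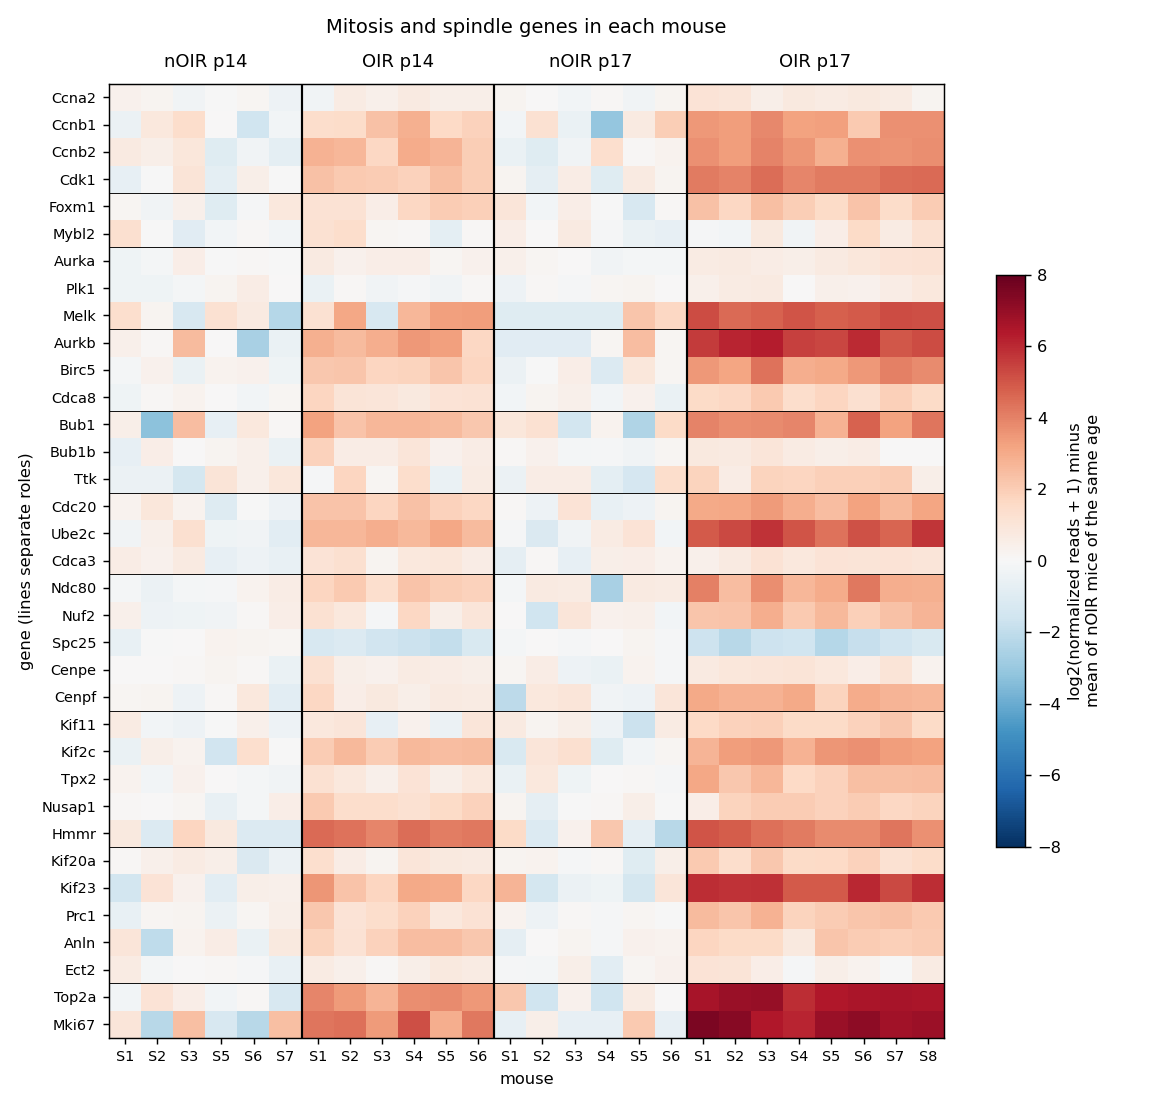
Each cell shows log2(normalized reads + 1) of 1 gene in 1 mouse minus the mean of the nOIR mice of the same age, with 35 genes in rows by role and 26 mice in columns by group. Red fills the OIR columns for most genes and deepens from p14 to p17, Spc25 is blue in all 14 OIR mice, and Top2a and Mki67 are darkest at p17.

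Promoters of the set were read because genes of late G2 and mitosis are known to share the CHR, a short element bound by the DREAM and MuvB complexes, often beside CCAAT boxes bound by NF-Y. Of the 35 genes, 30 had a promoter of 250 bases before to 50 after the start in RefSeq (GRCm38.p6), and Ccna2, Foxm1, Aurkb, Tpx2 and Kif20a had none in the table. The CHR was searched on both strands as TTTGAA. Its known variant, in which the middle of the element differs by a base, was searched as TTCGAA. Either form was found in 23 of 30 (76.7%), against 21.7% of 27025 genes with a promoter and 19.2% of all 32851 promoters. Within 50 bases before to 25 after the start it was found in 14 of 30 (46.7%), against 4.79% of genes. CCAAT on either strand was found in 22 of 30 (73.3%), against 41.1% of genes. Both motifs were found in 20 of 30 (66.7%), against 8.61% of genes, and a CHR and a CCAAT match can share at most an end letter. Stretches of 120 bases before to 20 after the start are shown for 6 genes picked with their motifs known, to show how CHR and CCAAT matches lie around the start, for Mki67, which had the highest log2 fold change at p17, for Melk, which rose at p17 with no CHR match, and for Spc25, which fell. They read 5′ to 3′ on the gene's strand, and capitals mark CHR and CCAAT matches on either strand. A match on the opposite strand shows as its reverse complement.
Ccnb2 (chr9:70421535-70421674, minus strand): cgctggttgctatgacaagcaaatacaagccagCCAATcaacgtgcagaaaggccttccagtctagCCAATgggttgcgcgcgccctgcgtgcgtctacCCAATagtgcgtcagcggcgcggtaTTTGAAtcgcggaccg
Cdk1 (chr10:69352893-69353032, minus strand): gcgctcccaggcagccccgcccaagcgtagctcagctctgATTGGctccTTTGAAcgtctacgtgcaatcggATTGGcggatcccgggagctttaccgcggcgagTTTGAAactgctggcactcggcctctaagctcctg
Top2a (chr11:99024170-99024309, minus strand): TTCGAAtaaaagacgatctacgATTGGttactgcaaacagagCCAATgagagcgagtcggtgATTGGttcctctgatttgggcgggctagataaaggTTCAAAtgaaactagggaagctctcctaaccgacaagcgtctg
Ube2c (chr2:164769809-164769948, plus strand): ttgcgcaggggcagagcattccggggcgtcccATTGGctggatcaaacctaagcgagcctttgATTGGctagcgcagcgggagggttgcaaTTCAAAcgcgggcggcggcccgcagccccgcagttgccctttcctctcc
Cdc20 (chr4:118437324-118437463, minus strand): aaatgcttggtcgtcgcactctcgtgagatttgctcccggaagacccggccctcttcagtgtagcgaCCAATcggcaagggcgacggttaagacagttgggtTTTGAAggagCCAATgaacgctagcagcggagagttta
Kif23 (chr9:61946780-61946919, minus strand): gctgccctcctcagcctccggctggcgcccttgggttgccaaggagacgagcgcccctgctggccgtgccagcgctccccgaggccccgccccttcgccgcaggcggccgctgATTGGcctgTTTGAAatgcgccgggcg
Mki67 (chr7:135716360-135716499, minus strand): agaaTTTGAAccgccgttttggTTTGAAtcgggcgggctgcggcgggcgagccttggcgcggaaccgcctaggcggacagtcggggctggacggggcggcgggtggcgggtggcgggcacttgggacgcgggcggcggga
Melk (chr4:44300797-44300936, plus strand): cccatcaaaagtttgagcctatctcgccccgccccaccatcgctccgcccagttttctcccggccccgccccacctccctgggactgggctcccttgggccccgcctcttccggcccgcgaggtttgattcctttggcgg
Spc25 (chr2:69206194-69206333, minus strand): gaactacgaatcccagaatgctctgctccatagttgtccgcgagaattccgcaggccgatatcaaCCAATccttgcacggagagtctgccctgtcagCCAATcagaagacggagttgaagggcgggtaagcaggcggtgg

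The Ccnb2 stretch holds 3 CCAAT boxes before a CHR that starts 5 bases past the start, and Cdk1 holds 2 of each motif. Mki67 holds 2 CHR matches far from the start and no CCAAT in the stretch, and Melk holds neither motif there. Spc25 holds 2 CCAAT boxes in the stretch, and its TTTGAA starts 25 bases past the start, outside the printed bases. Genes with and without a CHR match both rose. Among the 23 genes with a match, 15 were higher and 1 lower at p14 (median log2 fold change 1.87), and 20 were higher and 1 lower at p17 (median 2.72). Among the 7 without, namely Ccnb1, Mybl2, Melk, Birc5, Nuf2, Cenpe and Nusap1, 4 were higher at p14 (median 1.58) and 6 at p17 (median 2.39). A match is a string of letters and was not tested as a binding site.

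The proliferation marks had the 2 highest log2 fold changes of the set at p17. Mki67 encodes Ki-67, a protein that coats mitotic chromosomes and is widely used as a stain for cycling cells. It was at 0 in 4 of 6 nOIR p17 mice and reached 5.57 normalized reads in the highest, a total of 7 reads in the group, whereas OIR p17 mice held 106 to 286 (median 179). No OIR mouse overlapped a nOIR mouse, and the log2 fold change was 6.87 (SE 0.62, adjusted p = 1.89e-09). At p14 the range was 0 to 23.3 in nOIR mice (median 4.43) and 33.5 to 168 in OIR mice (median 86.8), again without overlap (log2 fold change 4.06, SE 0.67, adjusted p = 1.56e-04). Since so few reads lay in the controls, the size moved with the constant added before the log, from 4.98 to 9.24 at p17 over all alternatives, always higher in OIR.

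Top2a, the topoisomerase that untangles sister chromatids, followed the same course. It ranged from 0 to 12.6 in nOIR p17 mice (median 2.50) and from 179 to 383 in OIR p17 mice (median 286), a log2 fold change of 6.56 (SE 0.42, adjusted p = 2.32e-12). At p14, nOIR mice held 4.19 to 25.6 (median 11.0) and OIR mice 82.7 to 190.1 (median 151), a log2 fold change of 3.52 (SE 0.45, adjusted p = 3.98e-06). The groups did not overlap at either age. The nOIR p17 mice held a total of 23 Top2a reads, and over all alternatives the p17 log2 fold change ran from 5.22 to 7.87.

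**Figure D2:**
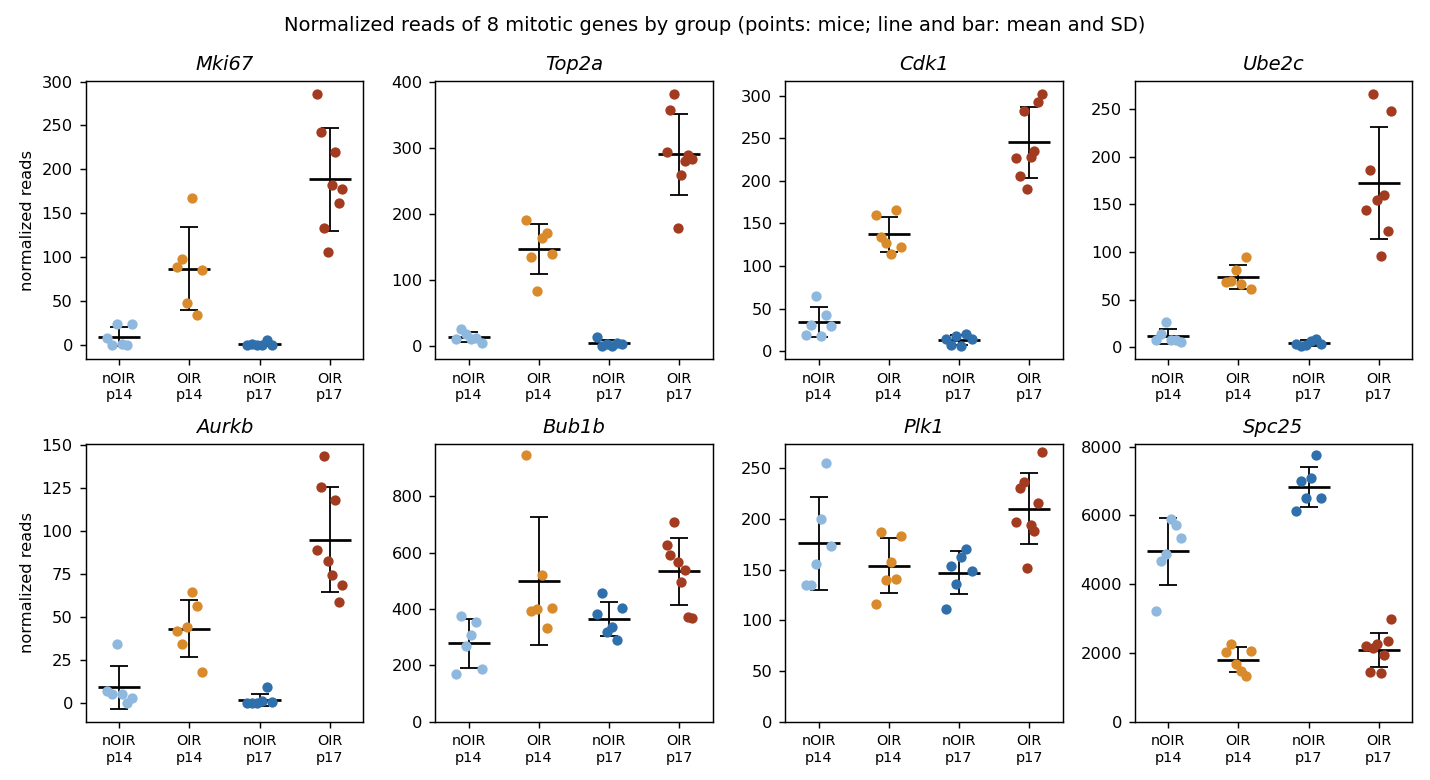
Normalized reads of 8 genes, with a point for each mouse and the mean and SD of each group as a line and bar. Mki67, Top2a, Cdk1, Ube2c and Aurkb step up from near the floor in nOIR to OIR p14 and again to OIR p17, Bub1b and Plk1 overlap between groups, and Spc25 falls in OIR at both ages.

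All 4 genes for the cyclins and their kinase were higher at p17 and 3 of 4 at p14. Cdk1, the kinase that drives entry into mitosis, held 17.5 to 64.7 normalized reads in nOIR p14 mice (median 29.7) and 114 to 165 in OIR p14 mice (median 131). At p17 it held 5.51 to 20.4 in nOIR (median 14.1) and 191 to 302 in OIR (median 231). Every OIR mouse was above every nOIR mouse of its age, with log2 fold changes of 2.12 (SE 0.29, adjusted p = 1.05e-05) and 4.23 (SE 0.27, adjusted p = 2.08e-12).

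Cdk1 acts with the B-type cyclins. Ccnb2 was at 7.01 to 28.3 in nOIR p14 (median 16.6) and 50.4 to 125 in OIR p14 (median 101), then at 5.67 to 32.0 in nOIR p17 (median 11.3) and 93.6 to 202 in OIR p17 (median 157). Its log2 fold changes were 2.47 (SE 0.35, adjusted p = 1.94e-05) and 3.54 (SE 0.33, adjusted p = 2.33e-09), without overlap. Ccnb1 rose by 1.90 at p14 (SE 0.57, adjusted p = 0.0421) and 3.33 at p17 (SE 0.53, adjusted p = 3.06e-05). The Ccnb1 call at p14 was the least firm of these, since leaving out any one of 9 mice ended it (nOIR p14 S1, S5, S6 and S7 and OIR p14 S1, S3, S4, S5 and S6, with a log2 fold change of 1.58 to 2.00 without them). That call was also lost with a constant of 0.1 before the log (2.01) and with every gene above 0 tested (1.90). The mouse number as a replicate block (2.04), quantile normalization (1.78) and leaving out the mice rich in lens RNA (1.90) ended it too.

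Ccna2, which acts earlier, in S phase and G2, changed less. It ranged from 218 to 317 in nOIR p17 (median 279.9) and from 318 to 583 in OIR p17 (median 447), with the lowest OIR mouse just above the highest nOIR mouse and a log2 fold change of 0.72 (SE 0.16, adjusted p = 0.00154). At p14 the difference was 0.39 (SE 0.17, adjusted p = 0.205) and was not called. It was called, at 0.53, when OIR p14 S1 was left out. About 12.5% of the Ccna2 exon bases overlap Exosc9 on the other strand in GENCODE M21, and counting without strand cannot separate reads there.

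The 2 transcription factors differed. Foxm1, which switches on late cell cycle genes, held 14.9 to 54.4 in nOIR p14 (median 31.1), 45.4 to 128 in OIR p14 (median 83.7), 10.2 to 51.4 in nOIR p17 (median 26.5) and 73.2 to 144 in OIR p17 (median 109). It was higher by 1.41 at p14 (SE 0.33, adjusted p = 0.00629) and 1.96 at p17 (SE 0.30, adjusted p = 2.1e-05), and only at p17 were the groups apart. For Mybl2, the B-Myb factor that works with MuvB, the differences of 0.37 (95% interval -0.43 to 1.16) and 0.50 (-0.24 to 1.25) were not called (adjusted p = 0.73 and 0.459).

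The mitotic kinases Aurka, Plk1 and Melk were all higher at p17, and their p14 differences were not called. Melk is a kinase made mainly in dividing cells. It was at 0 in 4 of 6 nOIR p17 mice and at most 8.35, against 44.5 to 71.6 in OIR p17 mice (median 61.1), a log2 fold change of 4.94 (SE 0.67, adjusted p = 2.46e-06). At p14 the OIR mice spread from 1.01 in S3 to 48.6 (median 34.9) over nOIR mice at 0 to 11.5 (median 5.85), and the difference of 2.06 was not called (SE 0.72, adjusted p = 0.0944). Without OIR p14 S3 it was 2.72 and was called, and it was also called by edgeR and DESeq2 and with a constant of 5 added before the log.

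Aurka builds the spindle poles. It held 72.8 to 119.9 in nOIR p17 (median 87.9) and 127 to 202 in OIR p17 (median 149.9), which did not overlap, with a log2 fold change of 0.79 (SE 0.15, adjusted p = 3.9e-04), and the p14 difference of 0.42 was not called (adjusted p = 0.154). Plk1, a kinase with roles from mitotic entry to cytokinesis, held 135 to 255 in nOIR p14 (median 165), 116 to 187 in OIR p14 (median 149.6), 111 to 171 in nOIR p17 (median 151) and 152 to 267 in OIR p17 (median 207). The groups overlapped at both ages. Its p14 difference was -0.17 (95% interval -0.51 to 0.17, adjusted p = 0.7), and its p17 difference of 0.51 (SE 0.16, adjusted p = 0.029) lost its call without any one of nOIR p17 S1 or S3 or OIR p17 S2, S3 or S8 (0.43 to 0.49) and without the 6 mice rich in lens RNA (0.30). The p17 call was also lost with the mouse number as a replicate block (0.44), after quantile normalization (0.35) and with log2 Cryaa as covariate (0.44).

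Of the chromosomal passenger complex, which corrects wrong kinetochore attachments, the 3 genes of the set rose at both ages. Its scaffold Incenp, from the list of other mitotic genes, was not called, with differences of 0.22 at p14 (SE 0.13, adjusted p = 0.429) and 0.07 at p17 (SE 0.12, adjusted p = 0.802). Aurkb, its kinase, was at 0 in 3 of 6 nOIR p17 mice with 9.28 in the highest, against 58.5 to 143 in OIR p17 mice (median 85.5), a log2 fold change of 5.61 (SE 0.55, adjusted p = 7.71e-09). At p14 nOIR mice held 0 to 34.4 (median 5.37) and OIR mice 18.1 to 64.8 (median 43.2), with 2.78 as the log2 fold change (SE 0.59, adjusted p = 0.00265) and an overlap set by nOIR p14 S3. Birc5, or survivin, rose by 1.96 (SE 0.29, adjusted p = 4.38e-05) and 3.53 (SE 0.27, adjusted p = 9.95e-11). Cdca8, or borealin, rose by 1.13 (SE 0.20, adjusted p = 3.7e-04) and 1.63 (SE 0.18, adjusted p = 1.14e-07), and neither gene overlapped between groups.

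Checkpoint genes were less even. Bub1, a kinase on unattached kinetochores, held 0 to 14.9 in nOIR p17 (median 7.26) and 35.4 to 145 in OIR p17 (median 76.2), a log2 fold change of 3.80 (SE 0.62, adjusted p = 3.9e-05), after 2.58 at p14 (SE 0.66, adjusted p = 0.0147). Its p14 call was lost with a constant of 0.1 before the log (3.20) and without the mice rich in lens RNA (2.45). Ttk, the Mps1 kinase that starts the checkpoint signal, differed by 0.56 at p14 (adjusted p = 0.627) and rose by 1.52 at p17 (SE 0.44, adjusted p = 0.0187), a call lost without nOIR p17 S4 (1.36) or S5 (1.25).

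Bub1b, or BubR1, which holds back Cdc20, was called at p14 but not at p17. The difference between its effects was not called (-0.28, 95% interval -0.89 to 0.34, adjusted p = 0.806). Bub1b held 169 to 377 in nOIR p14 (median 289), 334 to 947 in OIR p14 (median 400.1), 289 to 456 in nOIR p17 (median 358) and 367 to 708 in OIR p17 (median 551). It was higher at p14 by 0.81 (SE 0.22, adjusted p = 0.0222), and without OIR p14 S1, the mouse at 947, the difference was 0.61 and not called. The call was also lost without nOIR p14 S1 (0.68) or S7 (0.71). At p17 the difference of 0.53 (95% interval 0.11 to 0.95) was not called (adjusted p = 0.0939), though the same difference was called in the fit without OIR p14 S1. With only the compared groups in the fit, the p14 call was lost (0.81) and the p17 difference was called (0.53). The same happened with the mouse number as a replicate block (0.71 at p14 and 0.69 at p17).

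Of 3 genes tied to the APC/C or to mitotic entry, 2 were higher at p14 and all 3 at p17. Ube2c, the E2 enzyme of the APC/C, held 5.23 to 26.3 in nOIR p14 (median 8.07), 61.8 to 95.2 in OIR p14 (median 69.0), 1.13 to 9.28 in nOIR p17 (median 3.40) and 96.3 to 266 in OIR p17 (median 158). The groups stood apart at both ages, with log2 fold changes of 2.74 (SE 0.35, adjusted p = 3.56e-06) and 5.10 (SE 0.33, adjusted p = 2.32e-12). In GENCODE M21, 22.8% of the Ube2c exon bases overlap Tnnc2 on the other strand. Cdc20, the activator that the checkpoint restrains, held 12.3 to 49.4 in nOIR p14 (median 28.9) and 84.0 to 136 in OIR p14 (median 113), then 13.2 to 43.2 in nOIR p17 (median 18.2) and 114 to 224 in OIR p17 (median 172). It rose by 2.01 (SE 0.28, adjusted p = 1.94e-05) and 2.97 (SE 0.27, adjusted p = 1.36e-09). Cdca3, an F-box protein that promotes entry into mitosis, differed by 0.83 at p14 (SE 0.26, adjusted p = 0.052), which was called without any one of nOIR p14 S1 or S3, nOIR p17 S1 or S3, OIR p14 S3 or OIR p17 S1 (0.83 to 0.97), and it rose by 0.92 at p17 (SE 0.24, adjusted p = 0.00908). Its p17 call was lost after quantile normalization (0.72) and without the mice rich in lens RNA (0.73).

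Kinetochore genes held the exception of the set. Ndc80, Nuf2, Spc24 and Spc25 encode the rod-shaped complex that grips spindle microtubules. Spc25 was at 3225 to 5885 normalized reads in nOIR p14 (median 5111) and 1318 to 2256 in OIR p14 (median 1858), then at 6125 to 7763 in nOIR p17 (median 6757) and 1427 to 2977 in OIR p17 (median 2164). Every OIR mouse was below every nOIR mouse of its age, which held for 1.86% and 1.98% of all genes. It fell by 1.46 at p14 (SE 0.16, adjusted p = 3.31e-07) and by 1.74 at p17 (SE 0.15, adjusted p = 5.48e-10), and over all alternatives the log2 fold change stayed between -1.58 and -1.37 at p14 and between -1.85 and -1.67 at p17. Its exons overlap no other gene in GENCODE M21.

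The partners of Spc25 moved the other way, Ndc80 and Nuf2 from far lower levels. The nOIR p17 mean was 6833 normalized reads for Spc25, 6.67 for Ndc80 and 25.2 for Nuf2. Whether Spc25 RNA came from dividing cells was not tested. Ndc80 held 6.40 to 14.7 in nOIR p14 (median 8.43), 25.2 to 48.8 in OIR p14 (median 37.6), 0 to 9.28 in nOIR p17 (median 8.57) and 32.7 to 115 in OIR p17 (median 45.6), and it rose by 1.87 (SE 0.44, adjusted p = 0.007) and 3.22 (SE 0.41, adjusted p = 9.06e-07). Its p14 call was lost with a constant of 0.1 before the log (1.98). Nuf2 differed by 0.85 at p14 (SE 0.32, adjusted p = 0.141) and rose by 2.39 at p17 (SE 0.30, adjusted p = 7.88e-07). Spc24, which was not among the 35, rose by 1.33 (SE 0.38, adjusted p = 0.0303) and 2.14 (SE 0.35, adjusted p = 4.76e-05). Among proteins of the outer kinetochore, Cenpf differed by 0.80 at p14 (adjusted p = 0.297) and rose by 2.72 at p17 (SE 0.37, adjusted p = 2.11e-06). Cenpe, a kinesin that carries chromosomes to the spindle equator, rose by 0.62 (SE 0.18, adjusted p = 0.0376) and 0.78 (SE 0.17, adjusted p = 0.00158). The Cenpe call at p14 was lost without any one of nOIR p14 S1, S2, S3, S6 or S7 or OIR p14 S1, S4 or S5 (0.50 to 0.64). That call was also lost with the mouse number as a replicate block (0.61) and after quantile normalization (0.58).

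**Figure D3:**
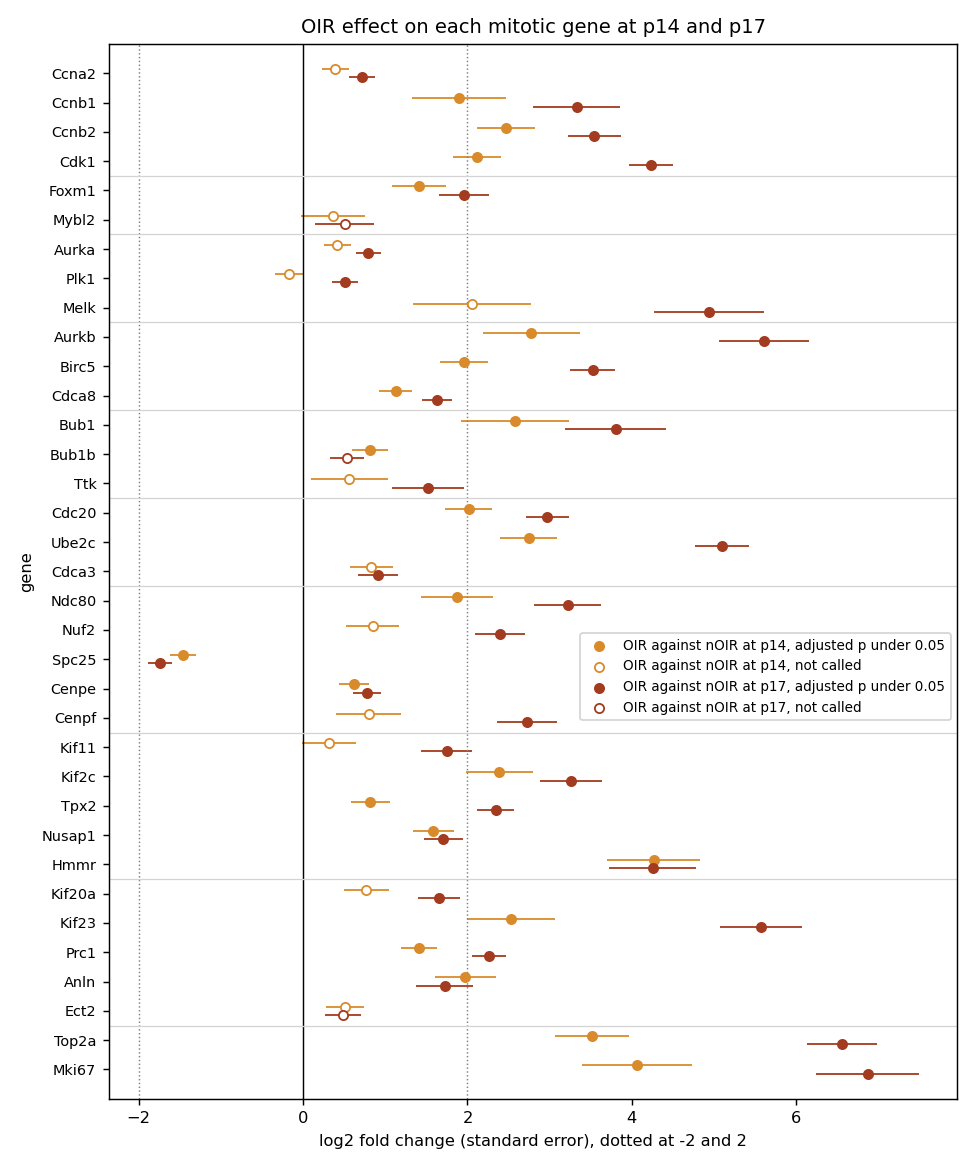
Log2 fold change of OIR against nOIR for each of the 35 genes at p14 and p17, with the standard error as a bar and filled points where adjusted p was under 0.05. Most p17 points lie right of the p14 points, the points of Hmmr, Cdca3 and Ect2 nearly coincide, and Spc25 lies left of 0.

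Spindle motors and microtubule proteins were higher in 4 of 5 at p14 and 5 of 5 at p17. Hmmr, a protein of the spindle poles, had nearly the same log2 fold change at both ages. It was at 0 in 3 of 6 nOIR p14 mice with 6.07 in the highest, against 31.3 to 47.8 in OIR p14 mice (median 40.8), and at 0 to 19.8 in nOIR p17 mice (median 3.33) against 57.3 to 154 in OIR p17 mice (median 86.0). The log2 fold changes were 4.26 (SE 0.57, adjusted p = 7.86e-06) and 4.25 (SE 0.53, adjusted p = 6.43e-07), and the interval of their difference, -1.60 to 1.58, was wide.

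Kif2c, a kinesin that takes microtubules apart, rose by 2.39 (SE 0.41, adjusted p = 2.54e-04) and 3.26 (SE 0.38, adjusted p = 1.9e-07). Nusap1, which bundles spindle microtubules, rose by 1.58 (SE 0.25, adjusted p = 8.43e-05) and 1.71 (SE 0.23, adjusted p = 2.64e-06). Kif11, the motor that pushes spindle poles apart, spread widely in OIR p14 mice, from 61.5 to 189 (median 147) over nOIR at 73.3 to 153 (median 89.4), and its difference of 0.32 was not called (95% interval -0.36 to 1.00, adjusted p = 0.722). At p17 it rose by 1.75 (SE 0.31, adjusted p = 1.28e-04), with 147 to 230.5 in OIR over 14.8 to 85.6 in nOIR mice.

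Tpx2, which activates Aurka on the spindle, held 57.6 to 89.0 in nOIR p14 (median 66.5), 91.8 to 166 in OIR p14 (median 126), 22.5 to 61.2 in nOIR p17 (median 33.0) and 104 to 288 in OIR p17 (median 184). It rose by 0.82 (SE 0.24, adjusted p = 0.0343) and 2.34 (SE 0.22, adjusted p = 4.46e-09). Groups did not overlap, yet its p14 call was lost without any one of nOIR p14 S2, S5, S6 or S7 or OIR p14 S1, S2, S4 or S6 (0.73 to 0.83). That call was also lost with the mouse number as a replicate block (0.83), after quantile normalization (0.73) and without the mice rich in lens RNA (0.83).

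Genes of the central spindle and cytokinesis were higher in 3 of 5 at p14 and 4 of 5 at p17. Kif23, the motor of centralspindlin, held 3.55 to 25.6 in nOIR p14 (median 15.4), 38.7 to 143 in OIR p14 (median 78.2), 0 to 17.1 in nOIR p17 (median 1.03) and 80.0 to 173 in OIR p17 (median 153). It rose by 2.53 (SE 0.54, adjusted p = 0.00275) and 5.57 (SE 0.50, adjusted p = 1.64e-09), though the p14 call was lost with a constant of 0.1 before the log (2.64). Prc1, which bundles midzone microtubules, rose by 1.41 (SE 0.22, adjusted p = 8.43e-05) and 2.26 (SE 0.21, adjusted p = 2.29e-09), with 11.1% of its exon bases shared with Rccd1. Anln, or anillin, a scaffold of the contractile ring, rose by 1.98 (SE 0.37, adjusted p = 6.82e-04) and 1.72 (SE 0.34, adjusted p = 5.42e-04).

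Kif20a, a kinesin of late mitosis, differed by 0.77 at p14 (SE 0.28, adjusted p = 0.108) and rose by 1.65 at p17 (SE 0.26, adjusted p = 2.1e-05), and 29.3% of its exon bases overlap Cdc23, itself an APC/C subunit. Ect2, which activates RhoA at the cleavage furrow, overlapped between groups at both ages. It held 56.2 to 140.2 in nOIR p17 (median 104) and 95.3 to 218 in OIR p17 (median 142), and its differences of 0.51 (95% interval 0.03 to 0.98) and 0.49 (0.05 to 0.93) were not called (adjusted p = 0.249 and 0.158).

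The log2 fold changes were highest among genes that were lowest in control retinas, whose level is itself part of the fold change. The 8 genes under 10 normalized reads on average in nOIR mice (Melk, Aurkb, Ube2c, Ndc80, Hmmr, Kif23, Top2a and Mki67) reached medians of 2.76 (p14) and 5.33 (p17), and all 8 were higher at p17. In the 15 genes from 10 to 50, the medians were 1.90 and 2.72, with 14 higher at p17. Among the 12 genes at 50 or more, the medians were 0.56 and 0.79, with 9 higher and Spc25 lower at p17.

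Whether the OIR effect grew from p14 to p17 was tested as the difference of the effects. It was larger at p17 for 6 of 35 genes, against 1.43% of all genes, and smaller for none, against 0.147%. By edgeR and DESeq2, 0 were also called smaller, against 38 and 93 of all 27137 genes. At an unadjusted p under 0.05 in limma, 18 were larger and 0 smaller. No share of all genes is given at that threshold, so the 18 cannot be set against a background. Past a difference of 2, 4 genes were called larger, against 0.383% of all genes, and 0 smaller, against 0.0516%. The differences were 2.11 for Cdk1 (SE 0.39, adjusted p = 0.00201), 3.04 for Top2a (SE 0.62, adjusted p = 0.00497), 2.35 for Ube2c (SE 0.48, adjusted p = 0.00502), 1.52 for Tpx2 (SE 0.33, adjusted p = 0.00856), 3.04 for Kif23 (SE 0.73, adjusted p = 0.0251) and 1.56 for Birc5 (SE 0.40, adjusted p = 0.0389). Each equals the change from p14 to p17 in OIR mice minus that in nOIR mice, so a fall in nOIR mice enlarges it. These 2 changes were 0.83 and -1.28 for Cdk1, 1.00 and -2.04 for Top2a, and 1.15 and -1.20 for Ube2c. They were 0.65 and -0.91 for Birc5 and 0.82 and -2.22 for Kif23, and Tpx2 changed by -1.04 in nOIR mice. For Mki67 the difference of 2.80 was not called in limma (SE 0.91, adjusted p = 0.153), though edgeR (3.93) and DESeq2 (4.11) called it. That of 2.83 for Aurkb was not called either (SE 0.80, adjusted p = 0.0743). The Aurkb difference was called without nOIR p14 S6 (3.35) or nOIR p17 S5 (3.32). It was also called with nOIR p14 S4 (3.15), with a constant of 5 (1.90) and by DESeq2 (3.36). Of the 6 calls, only that of Cdk1 remained without the 6 mice rich in lens RNA, an alternative that drops 4 of the 8 OIR p17 mice. The call of Birc5 was lost without any one of 13 mice (1.35 to 1.58 without them) and that of Kif23 without nOIR p14 S2, nOIR p17 S2 or S5 or OIR p14 S3 or S6 (2.75 to 2.88).

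The ages were also compared within each condition. In nOIR mice, 3 of 35 genes were lower at p17 than at p14, against 0.158% of all genes, and 0 were higher, against the same 0.158%. By edgeR and DESeq2, 0 were also higher, against 44 and 109 of all 27137 genes. At an unadjusted p under 0.05 in limma, 1 was higher, with no share of all genes given. Past a log2 fold change of 2, 1 gene was lower and 0 higher, against 0.0111% of all genes in each direction. Top2a fell by 2.04 (SE 0.45, adjusted p = 0.0374), Cdk1 fell by 1.28 (SE 0.29, adjusted p = 0.0407) and Tpx2 fell by 1.04 (SE 0.24, adjusted p = 0.0498). These were calls near the threshold, and a single left-out mouse ended that of Top2a in 10 of 26 cases, that of Cdk1 in 13 and that of Tpx2 in 20, with log2 fold changes from -2.11 to -1.72, from -1.33 to -1.07 and from -1.09 to -0.93. The median over the 35 genes was -0.38. Spc25 was higher in every nOIR p17 mouse than in every nOIR p14 mouse, by 0.49 (SE 0.16, adjusted p = 0.282), which was not called.

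In OIR mice, 32 of 35 genes had a positive log2 fold change from p14 to p17, with a median of 0.57, and 1 was called higher, against 4.11% of all genes. None was called lower by limma, edgeR or DESeq2, against 1.81% of all genes in limma and 420 and 693 of 27137 genes in edgeR and DESeq2. At an unadjusted p under 0.05 in limma, 0 were lower, with no share of all genes given. Past a log2 fold change of 2, 0 were called, against 0.45% of all genes higher and 0.133% lower. The gene that was higher was Ube2c, higher by 1.15 (SE 0.33, adjusted p = 0.0295), a call lost without any one of OIR p14 S1, S2, S4 or S6 or OIR p17 S2, S3 or S8 (1.05 to 1.14) and without the 6 mice rich in lens RNA. For Cdk1, Ube2c and Hmmr every OIR p17 mouse was above every OIR p14 mouse, against 1.41% of all genes. The age comparisons share their groups with the OIR comparisons, so the values are set side by side only.

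Mice of a group differed in how far the genes stood from controls. The median over the 35 genes of the log2 difference from the nOIR mean of the same age was -0.23 to 0.28 in nOIR mice, 0.97 in S3 to 1.69 in S1 in OIR p14 mice and 2.01 in S4 to 2.80 in S3 in OIR p17 mice. OIR p14 S1 was highest of its group for 13 genes and OIR p14 S3 lowest for 15, while OIR p17 S3 was highest for 15 and OIR p17 S4 lowest for 11. The SD relative to the mean was smaller in OIR mice, where means were higher, with a median coefficient of variation of 25.9% in OIR p14, 23.2% in OIR p17, 41.8% in nOIR p14 and 48.2% in nOIR p17 mice.

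**Figure D4:**
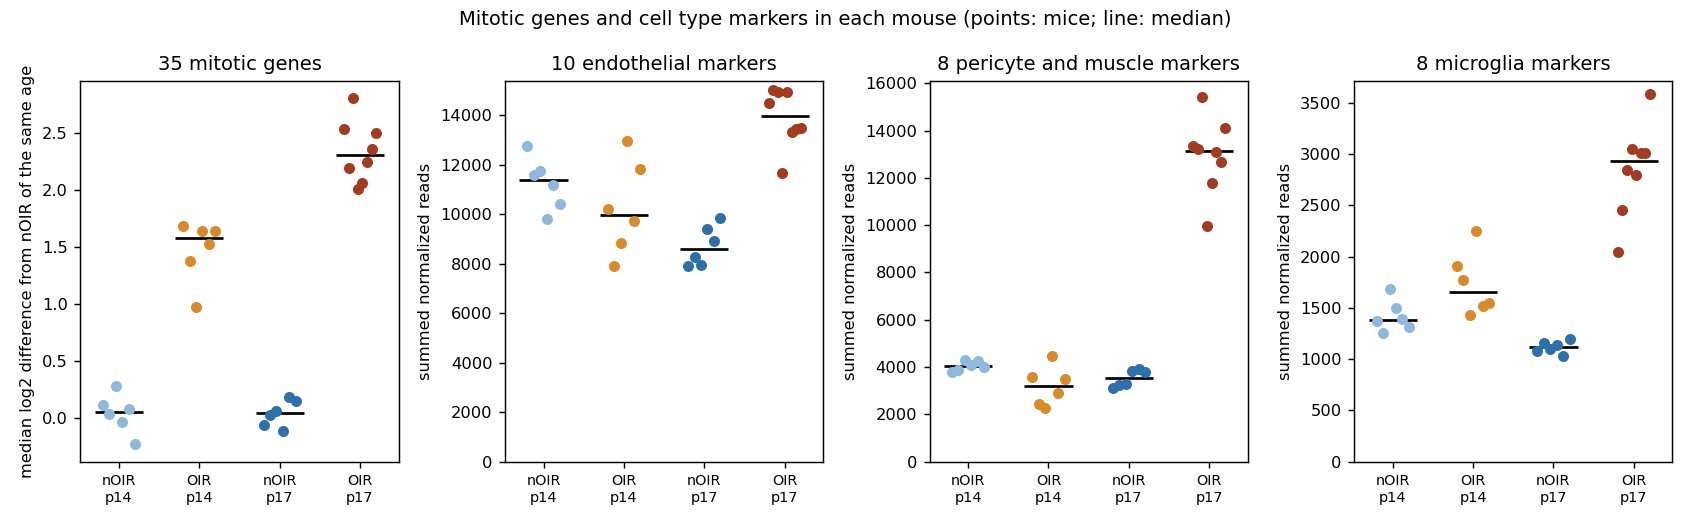
Left, the median over 35 mitotic genes of the log2 difference from nOIR mice of the same age in each mouse, followed by summed normalized reads of endothelial, pericyte and microglia markers. Mitotic genes stand clear of controls at p14 (0.97 to 1.69), when endothelial, pericyte and microglia sums of OIR mice all overlap those of controls. Astrocyte sums, not drawn, stand above controls at p14 (1181 to 1976 in nOIR and 3344 to 9712 in OIR mice). Müller glia sums, also not drawn, stand below (44425 to 56901 and 31933 to 43086). All 4 panels stand clear at p17.

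Of the cell types that could divide, vessel, immune and astrocyte markers were mostly higher at p17, and Müller glia markers mostly lower. Of 10 endothelial markers, 2 were higher and 1 lower at p14, and 8 were higher at p17, with sums of 9818 to 12770 in nOIR p14, 7913 to 12968 in OIR p14, 7916 to 9842 in nOIR p17 and 11669 to 15031 in OIR p17. Of 8 pericyte and smooth muscle markers, 1 was higher and 3 lower at p14 and all 8 were higher at p17, with sums of 3802 to 4306, 2257 to 4477, 3106 to 3930 and 9978 to 15432 in the same order. Of 8 microglia and macrophage markers, 2 were higher at p14 and 6 at p17, with sums of 1254 to 1681, 1434 to 2244, 1033 to 1192 and 2047 to 3583. No marker of the endothelial, pericyte and microglia lists was at 0 in a whole group, and their part in the mitotic genes was not tested.

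The other lists moved in different directions. Müller glia had 5 of 6 markers lower at both ages (sums 44425 to 56901, 31933 to 43086, 45713 to 53110 and 28666 to 45222), and astrocytes had 3 of 4 higher at p14 and 4 of 4 at p17 (1181 to 1976, 3344 to 9712, 1095 to 1691 and 3447 to 10509). Of 7 retinal progenitor markers tested, 1 was higher at each age, the cyclin D1 gene Ccnd1, and 2 were lower at p17. Red cell genes were not called at p14 and 3 of 3 were higher at p17 (91 to 1057, 183 to 682, 159.5 to 911 and 980.0 to 13336). Rods, which make up most of the retina, had 1 of 5 markers lower at p14 and 2 at p17, lens genes had 1 of 7 higher at p17, pigment epithelium had 1 of 4 lower at each age, 1 of 2 neutrophil genes was higher at p17, and 1 of 4 T and NK cell genes was measurable and not called. Their part in the mitotic genes was not tested either.

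Mitotic genes outside the set were called in part. Of 69 such genes, among them cohesin regulators, centromere proteins and condensins, 23 (33.3%) were higher and 46 not called at p14, against 3.18% of all genes higher. At p17, 44 (63.8%) were higher and 25 not called, against 7.39%. The median log2 fold change was 0.53 at the first age and 1.06 at the second. The checkpoint genes Mad2l1, Bub3 and Mad1l1, named after their values were seen, were not called at p14 (0.01, -0.07 and -0.20) or p17 (-0.20, 0.06 and -0.18). The 5 with the smallest adjusted p at p17 were Pbk, Racgap1, Cdca5, Ska1 and Cenpa. Pbk, a kinase of mitotic cells, held 0 to 4.25 in nOIR p17 and 45.4 to 151 in OIR p17 mice (log2 fold change 5.37, SE 0.42, adjusted p = 1.22e-10). Racgap1, the partner of Kif23 in centralspindlin, held 240.1 to 344 and 411 to 717 (1.04, SE 0.12, adjusted p = 2.65e-07). Cdca5, or sororin, which guards cohesin, rose by 3.90 (SE 0.48, adjusted p = 5.34e-07), Ska1 of the outer kinetochore by 3.77 (SE 0.47, adjusted p = 6.68e-07) and Cenpa, the centromere histone, by 1.11 (SE 0.14, adjusted p = 7.16e-07).

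Of 17 inhibitors and regulators of the cell cycle, 1 (5.88%) was higher and 16 not called at p14, against 3.18% of all genes higher. At p17, 3 were higher (17.6%), 1 was lower and 13 were not called, against 7.39% and 5.12% of all genes. Cdkn1a, or p21, an inhibitor of cyclin-dependent kinases, rose beside the mitotic genes, from 221 to 314 in nOIR p14 and 508 to 1148 in OIR p14 (log2 fold change 1.41, SE 0.22, adjusted p = 9.8e-05), and from 131 to 264 in nOIR p17 and 478 to 1577 in OIR p17 (2.11, SE 0.21, adjusted p = 9.33e-09). Cdkn2c, the inhibitor p18, rose by 0.98 at p17 (SE 0.18, adjusted p = 1.93e-04). Rbl1, the p107 protein of DREAM, rose by 1.11 (SE 0.21, adjusted p = 2.24e-04), while Lin52, a MuvB subunit, fell by 0.37 (SE 0.10, adjusted p = 0.0124).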

How the data were processed

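Whole retinas of 27 C57BL/6J pups were sequenced by the authors, who aligned reads with STAR (2.7.8a), counted them with featureCounts (2.0.1) on Gencode M28 and normalized them in DESeq2 (1.34). The deposited signal values are these normalized reads per gene, divided by a size factor per mouse. The deposited table also holds the authors' own log2 fold changes and adjusted p-values and their group means, none of which was used. Dividing each value by the step of 1 read gave whole reads for 100% of values (tolerance 1e-06), so depth per mouse was known. Groups came from the labels. Mouse S4 of nOIR p14 was left out, as in the study's methods, because of lens genes, which left 26 mice. The labels do not tie mice to litters, so p-values rest on the spread between mice.

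The members and gene lists were chosen with earlier results of these data known. Genes whose mean over the 26 mice was 1 normalized read or more (27137 of 40129) were fitted with limma (3.58.1, lmFit and eBayes with trend) on log2(normalized reads + 1), with the 4 groups in one fit and Benjamini-Hochberg adjustment over all genes tested. A gene was called at adjusted p under 0.05, and calls past a log2 fold change of 2 were counted apart. All 35 members are described, and, apart from those said to be chosen otherwise, the genes named from the other mitotic list are the 5 with the smallest adjusted p at p17. Alternatives changed the constant, filter, mice, samples, normalization and threshold, and ran edgeR (4.0.16) and DESeq2 (1.42.0) on the whole reads. The code was tested on simulated data. Promoters came from RefSeq (GRCm38.p6) and exon overlaps from GENCODE M21. Counting was treated as unstranded.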

Additional observations from a re-analysis of the deposited data

Results flagged for a closer look

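In 18 of 140 combinations of a gene and a group, the highest or lowest mouse lay far from the others of its group, by Dixon's critical value, which chance passes in about 1 of 20 groups. Of these, 5 were OIR p14 mouse S1, with Bub1b at 947 normalized reads, Cenpe at 435.9, Cdca8 at 148, Cenpf at 129.8 and Bub1 at 88.78. In nOIR p14 mice, S3 stood high for Bub1 at 52.61 and Aurkb at 34.4, S1 stood high for Mybl2 at 55.05, and S7 stood low for Cenpe at 128.7. In nOIR p17 mice, S1 stood high for Kif23 at 17.12 and Top2a at 12.62, S5 for Aurkb at 9.277 and Mki67 at 5.566, S2 for Tpx2 at 61.21, S3 for Cdc20 at 43.21 and S4 for Ccnb2 at 31.98. In OIR p17 mice, S5 stood low for Cenpf at 55.44 and S1 low for Nusap1 at 54.45.

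The OIR effect differed between p14 and p17 for 6 genes in limma, and each was larger at p17. The nOIR mean of each of these genes was lower at p17 than at p14, which is part of the difference. On the log2 scale the difference was 3.04 for Top2a, 3.037 for Kif23, 2.353 for Ube2c, 2.112 for Cdk1, 1.565 for Birc5 and 1.521 for Tpx2.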

How the results depend on the processing

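The direction of every call at p14 and p17 held under all alternatives run. At p14, 17 to 25 genes were higher and 1 lower, and at p17, 29 to 32 were higher and 1 lower. Leaving out each mouse gave 18 to 23 and 30 to 32. Past the fold threshold, 7 genes were higher at p14 with a constant of 5. The age comparisons were less steady. The 3 genes lower in nOIR p17 became 0 with a constant of 5, with every gene above 0, with only the compared groups, with the replicate block and at adjusted p under 0.01, and 1 after quantile normalization, with log2 Cryaa as covariate, without the lens-rich mice and by edgeR. Past the fold threshold, the 1 gene lower became 0 under those settings other than quantile normalization, and also with a constant of 0.1 and by DESeq2. The 1 gene higher in OIR p17 than OIR p14 became 0 with a constant of 0.1, with the replicate block, with Cryaa as covariate, without the lens-rich mice and at adjusted p under 0.01. It became 5 with a constant of 5, 4 with a mean of at least 10, 7 with only the compared groups, 4 by edgeR and 8 by DESeq2. The 6 larger effects at p17 became 3 with the replicate block, 1 without the lens-rich mice and 10 by DESeq2, and the 4 past the fold threshold became 2, 1 and, with a constant of 5, 1. The causes of these changes were not tested.

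Leaving out single mice gave 0 to 3 genes lower in nOIR p17, with 0 or 1 without any one of nOIR p14 S2, S3, S5, S6 or S7, nOIR p17 S2, S3, S4 or S6, OIR p14 S4 or S6 or OIR p17 S2, S6 or S7. It gave 0 to 2 past the fold threshold, with 2 without nOIR p17 S1. It gave 0 to 2 genes higher in OIR p17 than OIR p14, with 0 without OIR p14 S2 or S6 or OIR p17 S2, S3 or S8, and 2 without nOIR p14 S3, nOIR p17 S2, S3 or S4 or OIR p17 S4 or S6.

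Of 175 log2 fold changes of the 35 genes, 13 changed sign under some alternative, and 0 of these were called with all mice. For the difference of effects, Hmmr became 0.46 with a constant of 5, 0.53 with nOIR p14 S4 and 0.42 with the replicate block (-0.46 to 0.42 over left-out mice). Ect2 became 0.050 with S4, 0.060 with the replicate block, 0.0047 rescaled to the same total, 0.0072 without the lens-rich mice, 0.015 by edgeR and 0.0095 by DESeq2 (-0.18 to 0.095). Mybl2 became -0.041 with the replicate block (-0.12 to 0.34), and Cdca3 became -0.022 after quantile normalization (-0.057 to 0.21). Over left-out mice, Nusap1 ran from -0.024 to 0.29 and Anln from -0.44 to 0.15. From nOIR p14 to p17, Ccna2 became 0.053 with Cryaa as covariate and 0.031 without the lens-rich mice (-0.093 to 0.065), and Cdca8 became -0.0099 with S4 and -0.0057 without the lens-rich mice (-0.0058 to 0.17). Over left-out mice, Ccnb1 ran from -0.90 to 0.11, Foxm1 from -0.41 to 0.048 and Ttk from -0.46 to 0.093. From OIR p14 to p17, Aurka became 0.018 by edgeR and 0.0085 by DESeq2 (-0.057 to 0.054), and Cenpe ran from -0.17 to 0.013.

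Whether mouse numbers pair the mice could not be settled. Same-numbered mice had correlations of -0.108 to 0.161, with 4 of 34 over 0.1, against -0.22 to 0.15 for other pairs. Of 68 combinations of a mouse and a group, 16 correlated best with their own number, and no chance rate was computed. With the number as a replicate block, 18 genes were higher at p14 and 31 at p17. The set of mice without the lens-rich ones was chosen after seeing the data. Control levels of a few reads limited the fold changes of Mki67, Melk and Aurkb. The nOIR totals were also low for Top2a (23 reads), Kif23 (25) and Ube2c (27) at p17 and for Hmmr (12) at p14.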
